A study of Mus musculus with 10 samples.

Results

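The Sox family of transcription factor genes, through the 10 members Sox2, Sox4, Sox5, Sox6, Sox8, Sox9, Sox10, Sox11, Sox17 and Sox18, was followed across the cell types of the mouse medial prefrontal cortex. The members were chosen by gene symbol from the gene lists deposited with 10 single-cell RNA-seq libraries, and all 10 were found among the 30406 genes that every library lists. The libraries came from male C57BL/6N mice over 2 months old that held rank 1 (dominant) or rank 4 (subordinate) in a tube test of social dominance. Each rank had 5 libraries, called rank1 and rank4 replicates 1 to 5, and each library pooled the cortex of 2 or 3 mice taken 1 day after the last test, so the pool was the replicate. No transgene, drug or other treatment separated the ranks in the labels, and no unranked animals were analysed here.

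Sox proteins bind DNA through a high mobility group domain related to that of the sex-determining protein Sry, and they work with partner proteins that decide which target genes they act on. They are grouped by sequence: Sox2 belongs to SoxB1, Sox4 and Sox11 to SoxC, Sox5 and Sox6 to SoxD, Sox8, Sox9 and Sox10 to SoxE, and Sox17 and Sox18 to SoxF. In the brain, Sox2 maintains neural progenitors, the SoxE proteins drive the making of glia, the SoxC proteins act in newly made neurons, the SoxD proteins lack an activation domain of their own and act in glia and in neuron subtype choice, and the SoxF proteins shape blood vessels.

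Of 64937 deposited barcodes, 46052 cells were kept, with 1448 to 12657 cells and a median of 1332 to 2677 UMIs (unique molecular identifiers, 1 count per captured RNA molecule) per cell in a library. Cells were clustered without any Sox gene, so the members did not set the cell types. Of the 29 clusters 27 were named from marker genes, and every type name below means cells that resemble that type. Levels are CPM, the UMIs of a gene in all cells of a type in a library, divided by all UMIs of the type there and put on the usual scale of 1e6 UMIs. In each of 10 classes with enough cells in both ranks every marker of the class was detected. Among the subclasses, the L5 PT-like neurons had 2 of 7 markers at 0 and the L6 IT-like neurons 1 marker at only 0.187 CPM. Of all barcode sequences, 571 (0.887%) were found in more than 1 library. Software version 3.1.0 stands in the header of replicates 1 to 3 in either rank, and version 4.0.0, with a longer gene list, in replicates 4 and 5. A difference in CPM between types or libraries cannot separate more RNA per cell from more cells that express the gene.

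**Figure D1:**
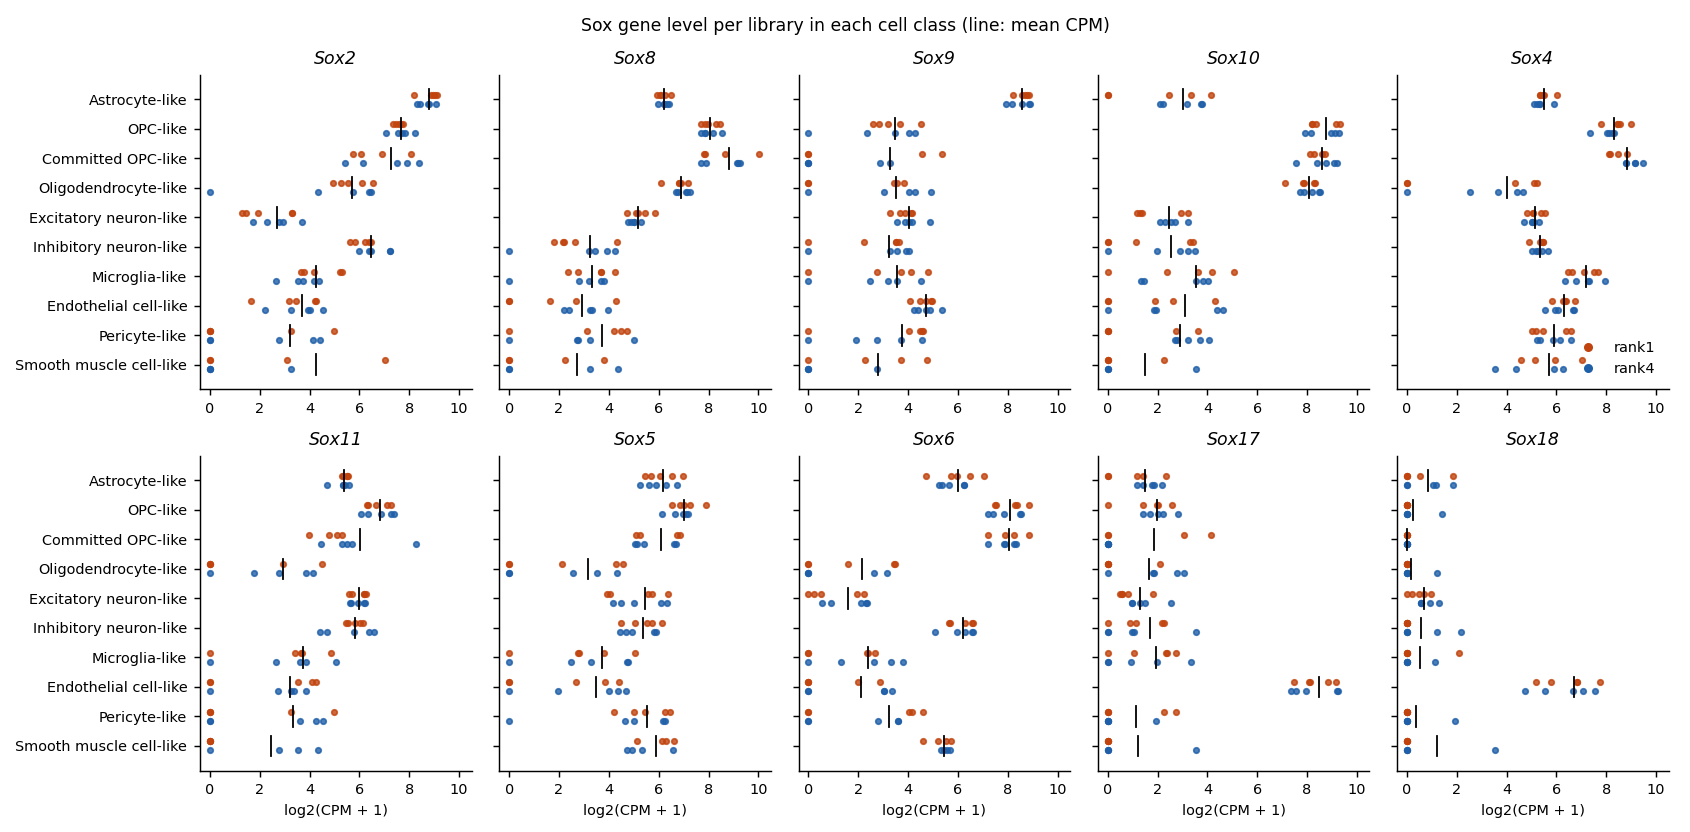
Level of each Sox gene in 10 cell classes, on a log2(CPM + 1) axis. Each point is a library (red, rank1; blue, rank4) and the black line is the mean CPM over libraries, so the Sox17 and Sox18 points stand apart in the endothelial class only, while the points of Sox4 and Sox5 spread over most classes.

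Sox2, which sustains neural stem and progenitor cells and stays on in mature astrocytes, was highest in astrocyte-like cells. The level there was 293, 500, 520, 550 and 473 CPM in rank1 replicates 1 to 5 and 320, 435, 437, 346 and 535 CPM in rank4 replicates 1 to 5. Replicate 1 was the lowest library in both ranks. Oligodendrocyte precursor-like cells followed at 200 ± 43.1 CPM (mean ± SD, n = 10), committed precursor-like cells at 152 ± 107 CPM (n = 9), inhibitory neuron-like cells at 87.6 ± 34.8 CPM and oligodendrocyte-like cells at 51.3 ± 30.7 CPM (n = 10 each). Neighbours in this order overlapped between libraries. Excitatory neuron-like cells had 5.41 ± 3.55 CPM (n = 10), and 2.27% of them held a Sox2 UMI at a median of 2422 UMIs per cell, against 46.3% of astrocyte-like cells at a median of 1500. After each cell was thinned to 1000 UMIs, which left 14485 and 7546 cells, these shares were 0.822% and 33.0%.

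Sox2 was higher in inhibitory than in excitatory neuron-like cells in 10 of 10 libraries, by 3.63 ± 0.22 on the log2 scale (fit ± SE, adjusted p = 1.53e-13). This and all other adjusted p-values come from edgeR's quasi-likelihood test on counts summed per library and type, adjusted by the Benjamini-Hochberg method over all genes tested, and a member was called at 0.05. Contrasts between types kept the library as a block. Across the inhibitory subclasses with at least 5 libraries the Sox2 means ran from 61.2 ± 14.6 CPM in Pvalb-like (n = 6) to 105 ± 16.5 CPM in Lamp5-like neurons (n = 5), and the ranges of these libraries did not meet. These subclasses cover different libraries and were not contrasted with each other. Sox2 in the whole inhibitory class averaged 117 CPM in replicates 2 and 3, 64.7 CPM in replicate 1 and 70.0 CPM in replicates 4 and 5.

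The Sox2 gene (chromosome 3, 34650405 to 34652461, GRCm38, plus strand, 1 exon) lies inside Sox2ot, a long non-coding RNA gene on the same strand. Only the 4 libraries of replicates 4 and 5 list Sox2ot, and it was therefore outside the shared genes. In those 4 libraries Sox2ot had 603 CPM in oligodendrocyte-like cells, where Sox2 had 73.3, and 90.2 CPM in astrocyte-like cells, where Sox2 had 473 (both in CPM over all UMIs of the class). Sox2ot and Sox2 thus had opposite orders in these classes. Whether UMIs of one were counted for the other in the shorter gene list was not tested.

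Of the SoxE genes, Sox9, which starts gliogenesis and stays on in astrocytes, stood apart in 1 class, and Sox10, which directs the oligodendrocyte lineage and activates myelin genes, in 3. Sox9 in astrocyte-like cells had 413, 466, 439, 374 and 298 CPM in rank1 replicates 1 to 5 and 455, 473, 382, 288 and 243 CPM in rank4 replicates 1 to 5. Its lowest library there stood above the highest of any other of the 10 classes. Endothelial-like cells came next at 25.4 ± 7.1 CPM (n = 10), and all other classes lay at or below 15.2 CPM on average. In oligodendrocyte precursor-like cells 2.22% of cells held a Sox9 UMI (median 1619 UMIs per cell), against 40.4% of astrocyte-like cells (0.931% and 27.7% after the same thinning), and the low levels outside astrocytes were not read as expression. All 8 astrocyte markers were also detected in the endothelial-like cells, summing to between 235 and 1095 CPM per library, against a mean of 18315 CPM in the astrocyte-like cells. Their part in the Sox9 level of other classes was not tested.

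Sox10 in oligodendrocyte precursor-like cells had 289, 567, 640, 330 and 293 CPM in rank1 replicates 1 to 5, and 289, 622, 556, 242 and 504 CPM in rank4 replicates 1 to 5. Replicates 2 and 3 of both ranks were the 4 highest libraries. Committed precursor-like cells had 386 ± 124 CPM (n = 9) and oligodendrocyte-like cells 267 ± 72.1 CPM (n = 10), and the ranges of these 3 classes overlapped. No library of any other class reached the lowest of them: microglia-like cells, next in order, had 10.8 ± 9.8 CPM (n = 10). Sox8, a SoxE gene that acts beside Sox10 in this lineage, followed the same 3 classes at 454 ± 273 CPM in committed precursor-like (n = 9), 269 ± 60.2 CPM in precursor-like and 119 ± 24.4 CPM in oligodendrocyte-like cells (n = 10 each). It was also measured in astrocyte-like cells at 72.8 ± 9.2 CPM, above every excitatory neuron-like library.

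All 8 members that could be tested between astrocyte-like and precursor-like cells differed, 2 higher and 6 lower in astrocyte-like cells, where 54.1% of all 9153 genes tested differed. Sox9 was higher in astrocyte-like cells by 5.17 ± 0.18 (log2, fit ± SE, adjusted p = 3.37e-16) and Sox2 by 1.36 ± 0.09 (adjusted p = 1.13e-11), each in 10 of 10 libraries. Sox10 differed the other way, at -5.23 ± 0.24 (adjusted p = 3.11e-14), also in 10 of 10 libraries. Sox4, Sox6, Sox8, Sox11 and Sox5 were lower in astrocyte-like cells by values between -2.51 and -0.67. Of 18 genes on a list linked to Sox9 in astrocytes, 17 could be tested and 11 were higher and 2 lower, with a median of 0.73 against -0.03 over all genes tested. The 4 with the smallest p were Lhx2, at 3.07, the glutamate transporter genes Slc1a3 and Slc1a2, at 3.71 and 3.44, and the water channel gene Aqp4, at 4.18. Slc1a3, Slc1a2 and Aqp4 were also among the markers that named the class.

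Along the oligodendrocyte lineage every tested member was higher in the precursor-like than in the oligodendrocyte-like cells. These were 7 of 7, against 50.6% of the 5780 genes tested that differed in either direction. The SoxD gene Sox6, which keeps precursors from maturing, had the largest difference, 5.90 ± 0.24 (adjusted p = 1.23e-16). Its level fell from 272 ± 106 to 3.47 ± 4.3 CPM (n = 10 each). Sox4 differed by 3.34, Sox5 by 3.18, Sox11 by 2.62 and Sox2 by 1.51. The SoxE genes differed least, Sox8 by 0.73 ± 0.13 (adjusted p = 2.92e-05) and Sox10 by 0.32 ± 0.11 (adjusted p = 0.0207). All 7 were higher in 10 of 10 libraries. The Sox10 call was lost in the rank1 libraries alone (adjusted p = 0.0588) and in the rank4 libraries alone (0.267), and without rank1 replicate 3 (0.0541) or rank4 replicate 5 (0.060), and with no filter on low counts (0.0731). The scaling between types entered these values. The trimmed-mean (TMM) factors set the median difference over all genes 0.38 lower on the log2 scale than scaling by library totals did.

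On a list of 20 oligodendrocyte lineage genes linked to SoxE proteins, 19 were tested in the same contrast, 7 higher and 12 lower in precursor-like cells, with a median of -2.37 against 0.03 over all genes. Pdgfra, the growth factor receptor of precursors, was higher by 7.18 and Cspg4 by 6.58. The myelin enzyme gene Cnp was at -4.57. Pdgfra and Cspg4 were also markers that named the precursor-like class.

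The step from precursor-like to committed precursor-like cells separated the members. Committed precursors have left the dividing pool and begin to mature. They were 289 cells in all, with at least 10 cells in 9 libraries. Of 7 members tested, 2 were higher, 2 were lower and 3 did not pass, where 27.9% of 4242 genes tested differed. Sox4 rose by 0.74 ± 0.17 (adjusted p = 6.86e-04, higher in 8 of 9 libraries) and Sox8 by 0.76 ± 0.17 (adjusted p = 6.81e-04, higher in 7 of 9). The exact two-sided permutation of signs over the 9 libraries did not call Sox8 (unadjusted p = 0.0508). Sox5 fell by 1.03 ± 0.26 (adjusted p = 0.00226) and Sox11 by 0.96 ± 0.29 (adjusted p = 0.0106), each lower in 8 of 9 libraries. Sox2 had a difference of -0.41 ± 0.21 (adjusted p = 0.147), and it passed with library totals as the scaling (-0.56, adjusted p = 0.0402) and with no filter on low counts (-0.61, adjusted p = 0.0386). Sox6 had 0.04 ± 0.19 and Sox10 0.07 ± 0.15, and both changed sign with that scaling. With a stricter cell filter (at least 1000 genes and at most 10% mitochondrial UMIs) Sox5 had -0.86 (adjusted p = 0.117) and Sox11 -0.68 (adjusted p = 0.251). In the rank1 libraries alone (4 libraries) Sox4 had 0.18 (adjusted p = 0.78), Sox8 0.73 (adjusted p = 0.106) and Sox5 -1.13 (adjusted p = 0.0922). In the rank4 libraries alone Sox11 had -0.59 (adjusted p = 0.243). Sox11 ranged from 14.8 to 308 CPM over the 9 committed precursor-like libraries, with a median of 38.2.

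Of the SoxE-linked list 14 genes were tested in this step, 9 higher and 5 lower, with a median of 2.52 against -0.04 over all genes. Mag and Nfasc, genes of myelin and its contact with axons, had 6.37 and 4.66, and Pdgfra had -6.05. On a list of 14 genes of immature neurons linked to SoxC, 9 were tested, 3 higher and 3 lower, with a median of -0.10. The microtubule genes Map1b and Tuba1a had 1.90 and 1.15, Ank3 had 1.44 and Dpysl3 -2.88.

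Sox4 in committed precursor-like cells had 357, 458, 280 and 275 CPM in rank1 replicates 1, 2, 4 and 5, and 439, 564, 709, 439 and 575 CPM in rank4 replicates 1 to 5. All 4 rank1 values lay below the rank4 value of the same number, and the groups overlapped. Gm26735, a gene opposite Sox4 that 6 libraries list, had at most 43.9 CPM in these cells. Sox8 there had 409, 1031, 231 and 223 CPM in the same rank1 replicates, and 606, 564, 574, 209 and 237 CPM in rank4 replicates 1 to 5. The 4 libraries of replicates 4 and 5 were the lowest in both ranks. Their mean was 225 CPM, against 231 CPM in their precursor-like cells, so Sox8 was no higher on average in the committed cells there. The means were 218 and 508 CPM in precursor-like and committed precursor-like cells of replicate 1, and 333 and 723 CPM in replicates 2 and 3. A gene antisense to Sox8, 2810468N07Rik, is listed in only those 4 libraries and had between 65.5 and 222 CPM in their committed precursor-like cells. Whether the library type or the longer list moved Sox8 counts was not tested, and no strand setting of the counting is given in the sources used here.

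The bases before the annotated starts of Sox4, Sox8 and Sox11 are shown because these genes moved in opposite directions in this step. They are the 250 bases upstream of the start (RefSeq, GRCm38.p6, all on the minus strand, written 5′ to 3′), with capitals at every match, on either strand, to the Sox-bound core ACAAT, to a second such core spelled ACAAAG, to the box known as CCAAT, to the GC box, which reads GGGCGG, or to the TATA box, which reads TATAAA.
Sox4, chr13:28953700-28953949: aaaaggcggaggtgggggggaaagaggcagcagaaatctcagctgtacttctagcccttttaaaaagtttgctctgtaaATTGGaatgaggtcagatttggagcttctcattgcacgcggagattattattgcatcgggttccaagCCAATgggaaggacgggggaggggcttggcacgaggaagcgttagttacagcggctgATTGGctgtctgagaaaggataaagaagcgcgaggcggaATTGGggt
Sox8, chr17:25570687-25570936: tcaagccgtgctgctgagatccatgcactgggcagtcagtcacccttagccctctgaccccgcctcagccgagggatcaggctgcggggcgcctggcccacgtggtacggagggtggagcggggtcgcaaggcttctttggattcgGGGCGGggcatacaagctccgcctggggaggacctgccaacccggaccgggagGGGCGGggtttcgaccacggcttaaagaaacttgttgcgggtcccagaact
Sox11, chr12:27342719-27342968: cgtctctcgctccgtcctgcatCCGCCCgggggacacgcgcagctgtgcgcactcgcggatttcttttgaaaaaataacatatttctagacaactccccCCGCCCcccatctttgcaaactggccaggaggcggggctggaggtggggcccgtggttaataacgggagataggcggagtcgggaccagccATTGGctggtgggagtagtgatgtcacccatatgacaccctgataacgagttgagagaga
The Sox4 window held 4 matches to the CCAAT box and none to the GC box, the Sox8 window 2 to the GC box and none to the CCAAT box, and the Sox11 window 1 to the CCAAT box and 2 to the GC box. None of the 3 held either Sox core or the TATA box, and no matches overlapped one another. Of the 32851 mouse promoter windows of this length in the RefSeq table, 33.8% held the CCAAT box, 32.7% the GC box, 27.7% the shorter Sox core, 16.5% the longer one and 12.4% the TATA box. Of the 10 members, 6 had an entry in that table. The Sox4 and Sox11 genes (chromosome 13, 28948919 to 28953713, and chromosome 12, 27334264 to 27342574, in the GENCODE M21 annotation of GRCm38) each have 1 exon, and Sox8 (chromosome 17, 25565892 to 25570686) has 2 to 3.

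**Figure D2:**
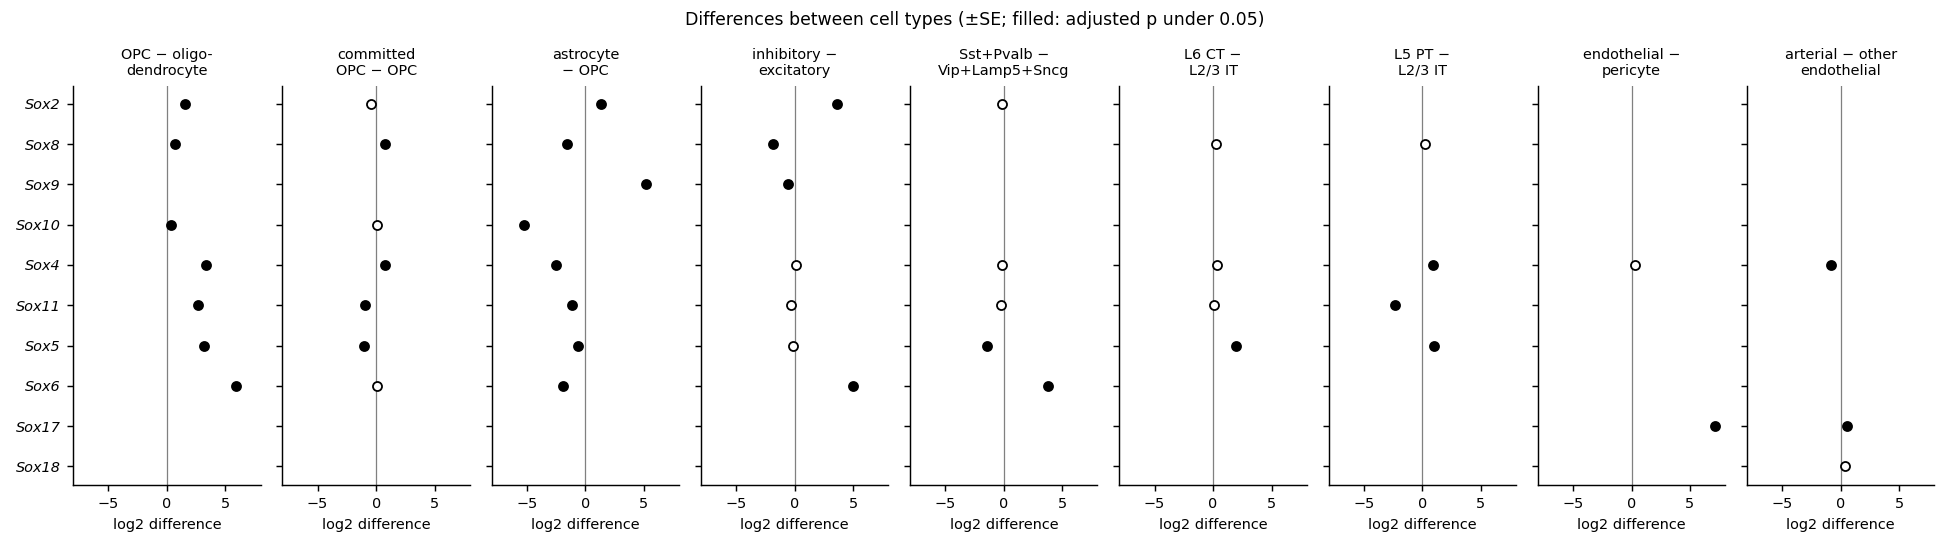
Fitted log2 difference (±SE) of each tested member in 9 contrasts between cell types, first type minus second. Filled points passed at an adjusted p of 0.05 and open points did not, and most error bars are shorter than the points. In all 32 of 47 are filled, 19 to the right of 0 and 13 to the left, where 26222 of 63382 gene tests passed over the 9 contrasts.

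Sox4 and Sox11, the SoxC genes, are known from immature neurons, where they switch on neuronal genes. Here Sox11 was highest in the precursor-like cells, while its committed precursor-like level had a mean of 63.8 and a median of 38.2 CPM. Sox4 was highest in the committed precursor-like and then the precursor-like cells. After these, Sox4 had 145 ± 54.5 CPM in microglia-like cells, 77.4 ± 21.4 CPM in endothelial-like cells and 33.7 ± 6.1 CPM in excitatory neuron-like cells (n = 10 each), with overlap between neighbours in the order. Sox11 in precursor-like cells had 101, 152, 136, 80.3 and 77.5 CPM in rank1 replicates 1 to 5, and 116, 165, 152, 79.6 and 66.1 CPM in rank4 replicates 1 to 5. It was measured at 62.4 ± 12.3 CPM in excitatory and 55.6 ± 23.5 CPM in inhibitory neuron-like cells, a difference that did not pass (-0.28 ± 0.13, adjusted p = 0.0818). It passed in 7 alternatives. Among them were no filter on low counts (-0.41, adjusted p = 3.87e-04) and the rank4 libraries alone (-0.50, adjusted p = 0.0459). It also passed without the subclusters flagged for markers of another class (-0.34, adjusted p = 0.0493) and without rank1 replicate 1 or 5 or rank4 replicate 2 or 3 (adjusted p between 0.0246 and 0.0457).

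Among excitatory subclasses Sox11 had its lowest mean in L5 PT-like neurons, at 14.7 ± 6.2 CPM (n = 9), followed by L5/6 NP-like neurons at 34.4 ± 15.9 CPM (n = 8), whose range overlapped with it and which were not contrasted. In the L5 PT-like neurons, which project out of the cortex to the brainstem and spinal cord, it had between 8.88 and 25.4 CPM in 9 libraries, and in the L2/3 IT-like neurons, which project within the telencephalon, between 56.3 and 110 CPM in the same libraries. The ranges did not meet and the difference was -2.30 ± 0.18 (adjusted p = 4.25e-14). Sox4 differed the other way, 64.3 ± 20.9 against 29.1 ± 5.3 CPM (0.95 ± 0.16, adjusted p = 4.19e-06, higher in 9 of 9 libraries). Together with Sox5 these were 3 of 4 tested members that passed, where 38.5% of genes did. Of the SoxC-linked list 10 genes were tested, 3 higher and 2 lower, with a median of 0.03. Neurod1, a neuronal differentiation factor, had -1.10, Dpysl3 0.88, Ank3 0.32 and Map1b 0.30.

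**Figure D3:**
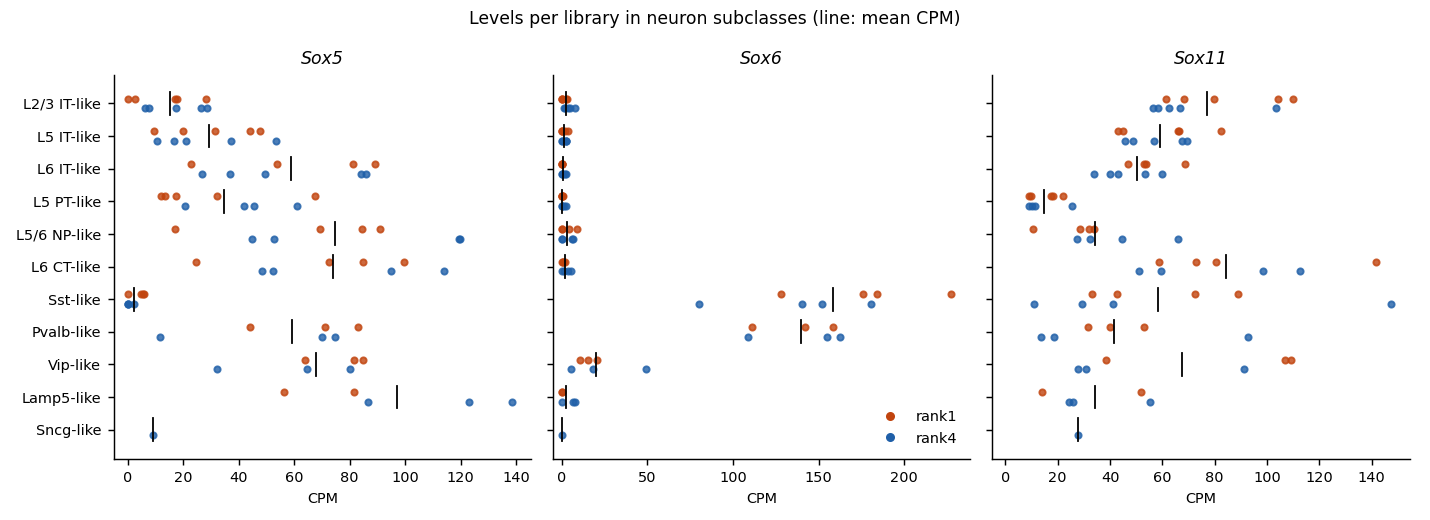
CPM of Sox5, Sox6 and Sox11 per library in 11 neuron subclasses (red, rank1; blue, rank4; black line, mean). Sox6 is at 80.4 CPM or more in every Sst-like and Pvalb-like library and at 49.3 CPM or less elsewhere, while Sox11 is at 25.4 CPM or less in the L5 PT-like neurons.

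Sox5, which sets the identity and migration of deep-layer neurons, was higher in L6 CT-like and L5 PT-like than in L2/3 IT-like neurons, the 2 subclass contrasts tested. In L6 CT-like neurons, which project to the thalamus, it had 72.5, 24.6, 84.7 and 99.4 CPM in rank1 replicates 1, 3, 4 and 5, and 52.4, 48.3, 95.1 and 114 CPM in rank4 replicates 1, 3, 4 and 5. In L2/3 IT-like neurons of the same libraries it had at most 28.4 CPM. The difference was 1.96 ± 0.13 (adjusted p = 1.57e-14, higher in 8 of 8 libraries). Sox5 was the 1 called member of 4 tested, where 35.3% of genes passed. Sox4 had 0.32 ± 0.14 (adjusted p = 0.0814) and passed in 4 alternatives, with no filter on low counts, with the stricter cell filter and without rank1 replicate 3 or 5 (0.40 to 0.47, adjusted p = 0.0134 to 0.0435). Sox8 had 0.28 ± 0.14 (adjusted p = 0.13) and passed in the first pair of these (0.39 and 0.56, adjusted p = 0.0177 and 0.0115). The mean was 15.2 ± 10.6 CPM in L2/3 IT-like, 29.2 ± 15.8 CPM in L5 IT-like (n = 10 each), 34.7 ± 20.6 CPM in L5 PT-like, 58.9 ± 26.7 CPM in L6 IT-like (n = 9 each) and 74.8 ± 36.1 CPM in L5/6 NP-like neurons (n = 8), with neighbours overlapping. These means cover different libraries: the sets of 8 or 9 lack up to 2 libraries with under 20 cells, among them rank4 replicate 2 for the L5 PT-like and L5/6 NP-like neurons, and excitatory Sox5 was lowest in replicates 2 and 3, so the means were not ranked against one another. In L5 PT-like against L2/3 IT-like neurons Sox5 differed by 1.03 ± 0.18 (adjusted p = 1.87e-05). Of 16 neuronal genes on a list linked to SoxD proteins, 11 were tested in the L6 CT contrast, 9 higher and 0 lower, with a median of 2.09 against -0.02 over all genes. Tle4 had 3.49, Foxp2 4.72, Zfpm2 2.81 and Tbr1 2.09, and all 4 encode regulators of transcription. Tle4 and Foxp2 were markers of the subclass.

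Sox6 marks interneurons that arise in the medial ganglionic eminence, among them the Sst and Pvalb types. In excitatory neuron-like cells it was at 1.98 ± 1.73 CPM, and 0.874% of them held a UMI. Inhibitory neuron-like cells had 72.7 ± 23 CPM (n = 10 each), a difference of 5.01 ± 0.20 (adjusted p = 4.73e-17). Of the 7 members tested between inhibitory and excitatory neuron-like cells 4 passed, where 48.2% of genes did. Besides Sox6 and Sox2 these were Sox8, at -1.88 ± 0.18 (adjusted p = 2.32e-09), and Sox9, at -0.58 ± 0.20 (adjusted p = 0.0169). Sox8 had 34.8 ± 9.2 CPM in the excitatory and 8.38 ± 6.67 CPM in the inhibitory neuron-like cells. The 8 oligodendrocyte markers, all detected, summed to between 22.9 and 251 CPM per library in the excitatory and between 8.3 and 299 CPM in the inhibitory class, and the 7 precursor markers to at most 57.2 and 105 CPM. The 8 excitatory markers averaged 483 CPM in the inhibitory class (158 to 908 per library), against 2749 CPM in their own. The 8 astrocyte markers summed to between 274 and 1287 CPM in the excitatory and between 206 and 879 CPM in the inhibitory class, and the part of any of these in the differences was not tested. Of the inhibitory neuron-like cells 21.5% lay in 4 subclusters with more markers of another class than of their own among their top 10 genes, 330 cells of them led by astrocyte genes such as Slc1a3, and of the excitatory ones 21.6%. The excitatory share included all 1095 L6 IT-like neurons, flagged through 1 fibroblast marker, Dcn. With all flagged subclusters left out, an alternative added after the data were seen, all 4 passed. Sox6 was then at 5.24, Sox2 at 3.71, Sox8 at -2.05 and Sox9 at -0.74 (adjusted p = 0.00508). The Sox9 difference did not pass in the rank1 (-0.68, adjusted p = 0.109) and rank4 libraries alone (-0.53, adjusted p = 0.114) or with the stricter cell filter (-0.48, adjusted p = 0.155). Sox9 averaged 15.2 CPM in the excitatory and 8.51 CPM in the inhibitory class, low levels that were not read as expression, and the astrocyte markers, at means of 740.9 and 452.9 CPM, were higher in the same class. Of the SoxD-linked list 15 genes were tested, 6 higher and 9 lower, with a median of -0.97 against 0.02 over all genes. The interneuron regulators Lhx6, Maf and Satb1 had 6.17, 5.25 and 2.13.

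Among the inhibitory subclasses Sox6 divided the Sst-like and Pvalb-like from the Vip-like, Lamp5-like and Sncg-like neurons. The first pair together had 202, 109, 97.4, 140 and 166 CPM in rank1 replicates 1 to 5, and 140, 124, 143 and 153 CPM in rank4 replicates 1, 3, 4 and 5. The other 3 together had at most 23.6 CPM in any library, with no overlap. The difference was 3.78 ± 0.22 (adjusted p = 8.41e-19). The Vip-like neurons included a subcluster of 78 cells whose leading genes, among them Slc17a7 and Foxp2, are those of excitatory neurons, with 0 Vip markers in its top 10. Without it and the other such subclusters Sox6 differed by 5.26 (adjusted p = 1.68e-20) and Sox5 by -1.54. Sox5 differed the other way at -1.47 ± 0.20 (adjusted p = 4.34e-08), and these were 2 called of 5 tested, where 28.5% of genes passed. The pair was not uniform for Sox5, with 2.36 ± 2.73 CPM in Sst-like (n = 8) and 59.1 ± 26.7 CPM in Pvalb-like neurons (n = 6), and the ranges of their libraries did not meet. Of the SoxD-linked list 8 genes were tested, 4 higher and 3 lower. Satb1 had 3.31 and Lhx6 4.11, both regulators of interneurons from the same origin, and Sst itself, a marker of the subclass, had 5.00.

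Outside neurons and glia Sox6 was measured in smooth muscle-like cells at 41.8 ± 9.3 CPM (n = 8), above every pericyte-like library (8.37 ± 8.43 CPM, n = 10). Sox5 had its highest mean in the oligodendrocyte precursor-like cells, and so did Sox6, whose level in committed precursor-like cells (266 ± 97.3 CPM, n = 9) did not stand below it beyond the spread. Sox6 in precursor-like cells had 315, 177, 181, 455 and 328 CPM in rank1 replicates 1 to 5, and 231, 168, 146, 368 and 355 CPM in rank4 replicates 1 to 5. Sox5 had 115, 128, 90.7, 241 and 150 CPM in rank1, and 124, 98.9, 68.8, 135 and 144 CPM in rank4 replicates 1 to 5. These are the longest of the member genes, 953.6 kb for Sox5 (chromosome 6, 143828425 to 144781977) and 567.9 kb for Sox6 (chromosome 7, 115470872 to 116038796). Antisense genes lie within both. In precursor-like cells the 5 antisense genes of Sox5 held 3 UMIs over all 10 libraries and Sox6os 10.

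Sox17 and Sox18 are SoxF genes of the endothelium, where they act in arterial fate, barrier formation and vessel integrity. Sox17 in endothelial-like cells had 267, 453, 577, 281 and 179 CPM in rank1 replicates 1 to 5, and 249, 583, 606, 161 and 189 CPM in rank4 replicates 1 to 5. Sox18 had 215, 111, 111, 53.4 and 34.8 CPM in rank1, and 187, 101, 134, 25.6 and 45.0 CPM in rank4 replicates 1 to 5. Every endothelial-like library stood above every library of the other 9 classes for both genes. The next class had 2.95 ± 1.73 CPM for Sox17 (precursor-like, n = 10) and 1.32 ± 3.75 CPM for Sox18 (smooth muscle-like, n = 8). Of endothelial-like cells 31.6% held a Sox17 UMI (95% exact binomial interval 30.2% to 33.0%, counting error only) against 0.442% of microglia-like cells at a like depth (medians 1248 and 1270.5 UMIs), or 23.6% and 0.28% after thinning. For Sox18 these shares were 14.4% and 0.138%. Among the erythroid-like cells, which were too few for a rank test, 13.1% of 444 held a Sox17 UMI (median 2545.5 UMIs), or 5.16% after thinning. Of these cells 118 formed a cluster with the endothelial marker Itm2a among its top 10 genes. The 8 endothelial markers summed to between 407 and 13142 CPM in the 5 erythroid-like libraries. The part of such cells or RNA in the Sox17 share was not tested.

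Against pericyte-like cells Sox17 was higher by 7.15 ± 0.27 (adjusted p = 4.98e-17, 10 of 10 libraries). Sox18 did not pass the filter on low counts in this contrast. Of 2 members tested 1 was called, where 49% of genes passed. Sox4 had 0.27 ± 0.17 (adjusted p = 0.195), with -0.060 under the stricter cell filter and 0.43 (adjusted p = 0.0452) with no filter on low counts. Of 22 vascular genes linked to SoxF, 18 were tested, 14 higher and 3 lower, with a median of 2.29 against -0.04 over all genes. Flt1 and Kdr, receptors of vascular endothelial growth factor, had 5.36 and 5.65, and the junction genes Cldn5 and Cdh5 6.61 and 6.67. Flt1, Cldn5 and Cdh5 were markers of the class.

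In arterial-like cells Sox17 had 452 ± 191 CPM against 336 ± 195 CPM in the endothelial-like cells named neither arterial nor venous (n = 10 each). The difference was 0.54 ± 0.14 (adjusted p = 0.00517, higher in 8 of 10 libraries), and in the rank1 libraries alone 0.32 (adjusted p = 0.386). Sox4 was at -0.82 ± 0.22 (adjusted p = 0.00695), with 48.4 ± 27.6 against 83.9 ± 27.8 CPM. Sox4 was at -0.90 in the rank1 (adjusted p = 0.134) and at -0.75 in the rank4 libraries alone (adjusted p = 0.0649), differences of similar size that did not pass with 5 libraries each. Sox18 had 0.34 ± 0.20 (adjusted p = 0.256). These were 2 called of 3 tested, where 21.6% of genes passed. The second group held subclusters led by genes of other types: 438 cells with haemoglobin genes, 123 with pericyte, 52 with astrocyte and 31 with microglia genes, and 117 led by Meg3 and Snhg11. Its largest subcluster, 1457 cells, was led by neuropeptide and other neuronal genes such as Npy, Sst and Scg5. Without the haemoglobin, pericyte, astrocyte and microglia subclusters Sox17 was at 0.52 (adjusted p = 0.0154) and Sox4 at -0.90 (adjusted p = 0.00396). The subclusters of 1457 and 117 cells stayed in this alternative. Of the SoxF-linked list 16 genes were tested, 9 higher and 4 lower: the arterial genes Hey1, Unc5b and Efnb2 had 1.82, 1.50 and 1.31, and Kdr had -0.81. Hey1 and Efnb2 were markers of the arterial-like cells.

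Levels also differed between the replicate numbers of the libraries, for members as for genes in general. A test of the 5 replicate numbers, with rank as a covariate and added after the library values had been seen, called 28 of 41 member tests in classes (68.3%), where 38.6% to 67.3% of all genes were called in a class and 56.7% over the 10 classes. Endothelial Sox18 had its highest library in replicate 1 and its lowest in replicates 4 and 5 in both ranks (adjusted p = 2.66e-10), whereas Sox17 in the same cells was highest in replicates 2 and 3 (adjusted p = 1.01e-09). Sox5 in excitatory neuron-like cells had 52.6 to 82.0 CPM in replicates 4 and 5, and 14.4 to 21.3 CPM in replicates 2 and 3 (adjusted p = 7.87e-08). Precursor-like Sox6 was likewise highest in replicates 4 and 5 and lowest in 2 and 3 (adjusted p = 3.23e-07), the reverse of Sox11 (adjusted p = 1.83e-04) and, for replicates 2 and 3, of Sox10 (adjusted p = 1.29e-05). Sox4 was not called by replicate number in astrocyte-like, inhibitory or excitatory neuron-like cells (adjusted p = 0.898, 0.966 and 0.276). It was called in precursor-like cells (adjusted p = 0.0432) and in the L5 IT-like subclass (adjusted p = 0.0369). In subclasses 14 of 31 member tests were called (45.2%), where 18.6% to 58.5% of genes were in a subclass and 38.7% over the 10 subclasses. The software version of the headers also divides replicates 1 to 3 from 4 and 5, and its part in these differences was not tested. Endothelial Sox17 and Sox18 and excitatory Sox5 in replicate 1 did not overlap with replicates 2 and 3, while other members did. Astrocyte-like Sox9 had 413 to 455 CPM in replicate 1 and 382 to 473 CPM in replicates 2 and 3. Precursor-like Sox4 had 319 to 346 and 277 to 504 CPM.

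**Figure D4:**
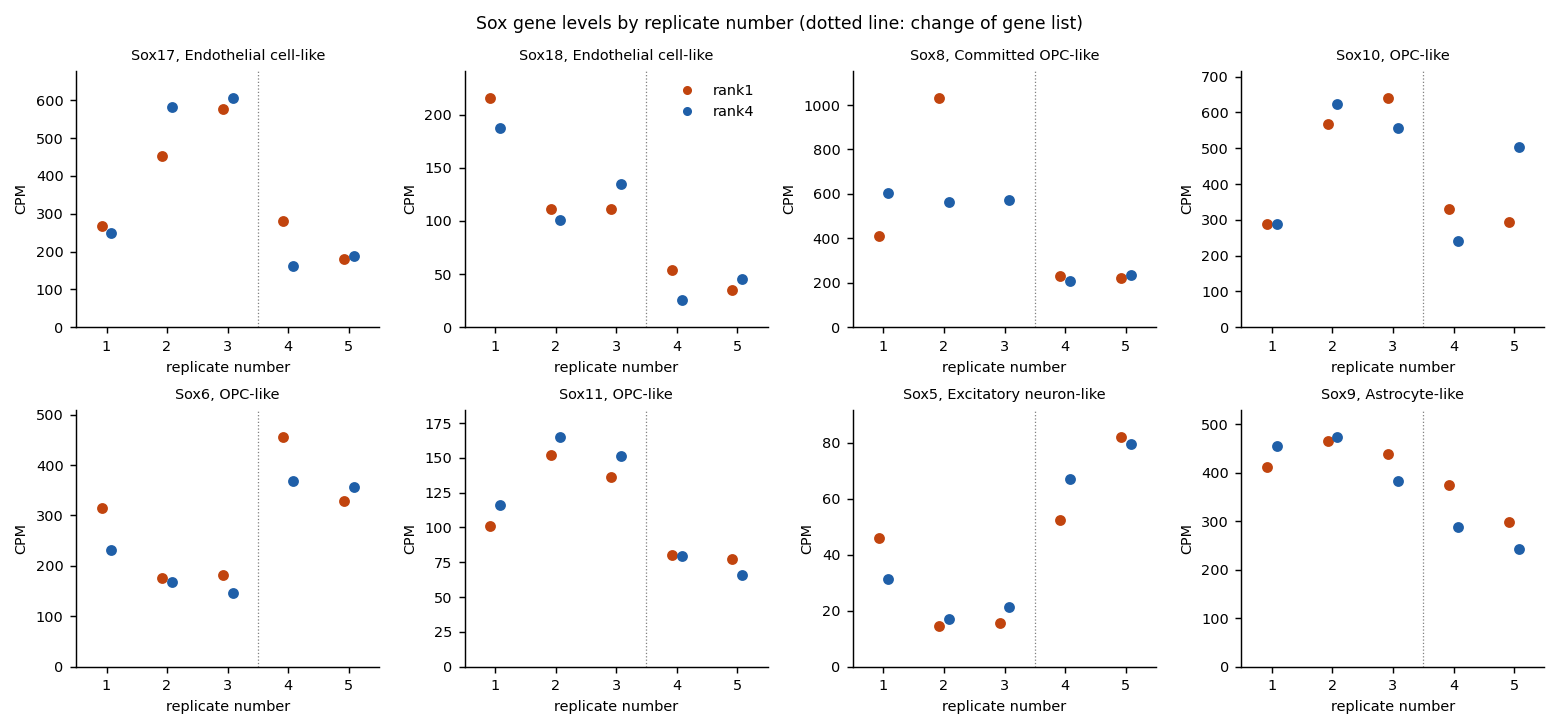
CPM of 8 members in 1 class each against the replicate number in the labels (red, rank1; blue, rank4; dotted line, the change of gene list between replicates 3 and 4). Replicate numbers differ alike in both ranks for endothelial Sox18, at 187 and 215 CPM in replicate 1 and at 25.6 to 53.4 CPM in replicates 4 and 5.

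The study asked how social rank goes with the prefrontal cortex, and the members were compared between the ranks in each class and subclass. None was called: 0 of 41 tests in classes passed, where 0% of all genes passed in every class, and 0 of 31 in subclasses, where 0.0162% of gene tests passed, all 10 in Vip-like neurons (0.317% of genes there). At an unadjusted p under 0.05 there were 2 of 41 member tests in classes and 1 of 31 in subclasses without the replicate block, where 1.16% to 3.68% of all genes in a class and 2.44% to 8.09% in a subclass had one. DESeq2 also called 0. On simulated counts of precursor-like cells the rank fit recovered 6.52% of 1.5-fold, 58.7% of 2-fold and 100% of 4-fold changes. Smaller rank differences could therefore go uncalled. With the replicate number as a block 0 of 40 tests passed in classes and 0 of 32 in subclasses, where 0.229% and 0.427% of gene tests did. The share of genes called with this block was 0.51% in excitatory and 0.0991% in inhibitory neuron-like, 0.346% in astrocyte-like, 0.0406% in precursor-like, 0.29% in endothelial-like and 0.511% in smooth muscle-like cells, and 0% in the other 4 classes. By subclass it was 0.517% in L2/3 IT-like, 0.857% in L5 IT-like, 0.168% in L6 IT-like, 0.0517% in L5 PT-like, 0.265% in L5/6 NP-like and 0.893% in L6 CT-like neurons. It was 0.0751% in Sst-like, 0.354% in Pvalb-like and 0.254% in Vip-like neurons and 0.0421% in arterial-like cells.

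With the block 6 of 40 member tests in classes and 2 of 32 in subclasses had an unadjusted p under 0.05, where 4.91% to 12.7% of all genes in a class and 7.33% to 10.7% in a subclass did. Sox11 in Sst-like neurons had the smallest, at 1.29 ± 0.40 (unadjusted p = 0.00237, adjusted p = 0.361, higher in rank1 in 3 of 3 pairs), and did not pass the filter on low counts without the block. Sox6 was at 0.34 ± 0.15 in astrocyte-like cells (adjusted p = 0.333, higher in rank1 in 4 of 5 pairs). In excitatory neuron-like cells Sox9 was at -0.32 ± 0.14 (adjusted p = 0.347) and Sox6 at -0.89 ± 0.41 (adjusted p = 0.377), each lower in rank1 in 5 of 5 pairs. Both levels were low there: Sox6 averaged 1.98 CPM, with 0 in the lowest library, and Sox9 15.2 CPM, which was not read as expression. Sox2 and Sox11 in inhibitory neuron-like cells had adjusted p = 0.358 and 0.61, Sox4 in precursor-like cells 0.392 and Sox2 in Sst-like neurons 0.653.

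Without the block the smallest adjusted p was 0.713, for Sox11 in Vip-like neurons (0.73 ± 0.43, higher in rank1 in 3 of 3 pairs). The 3 tests with an unadjusted p under 0.05 were of Sox2 and Sox4. Sox2 in inhibitory neuron-like cells had 47.8, 87.9, 82.5, 55.1 and 74.6 CPM in rank1 replicates 1 to 5 and 81.6, 149, 147, 62.3 and 88.1 CPM in rank4 replicates 1 to 5. It was lower in rank1 in 5 of 5 pairs of the same number, at -0.49 ± 0.22 (unadjusted p = 0.0418, adjusted p = 1.00). The same gene in Sst-like neurons had -0.73 ± 0.30 (unadjusted p = 0.0245, adjusted p = 1.00), lower in 3 of 3 pairs. Sox4 in precursor-like cells had 346, 378, 504, 351 and 223 CPM in rank1 replicates 1 to 5 and 319, 297, 277, 162 and 261 CPM in rank4 replicates 1 to 5, higher in rank1 in 4 of 5 pairs, at 0.42 ± 0.19 (unadjusted p = 0.0449, adjusted p = 1.00). In committed precursor-like cells it had -0.56 ± 0.29 (unadjusted p = 0.0739, adjusted p = 0.994), lower in rank1 in 4 of 4 pairs. The change of Sox4 between these 2 classes was compared between the ranks and had a difference of -0.91 ± 0.30 (unadjusted p = 0.00537, adjusted p = 1.00). Its p was the smallest of 47 such tests over the 9 contrasts, of which 0 passed, where 0.00158% of gene tests did. At an unadjusted p under 0.05 there were 2 of the 47, where 2.08% to 4.54% of all genes in a contrast had one.

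In the class where each was highest, the members other than Sox4 had rank differences between -0.10 and 0.30 on the log2 scale. Sox9 in astrocyte-like cells had 398 ± 65.4 CPM in rank1 and 368 ± 101 CPM in rank4 (0.13 ± 0.17). Endothelial Sox17 had 351 ± 160 and 358 ± 219 CPM (0.04 ± 0.33), and Sox18 105 ± 70.5 and 98.6 ± 65.9 CPM (0.09 ± 0.24, n = 5 per rank in each case). None of the genes of the 6 Sox-linked lists was called between ranks in any class or subclass.

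**Figure D5:**
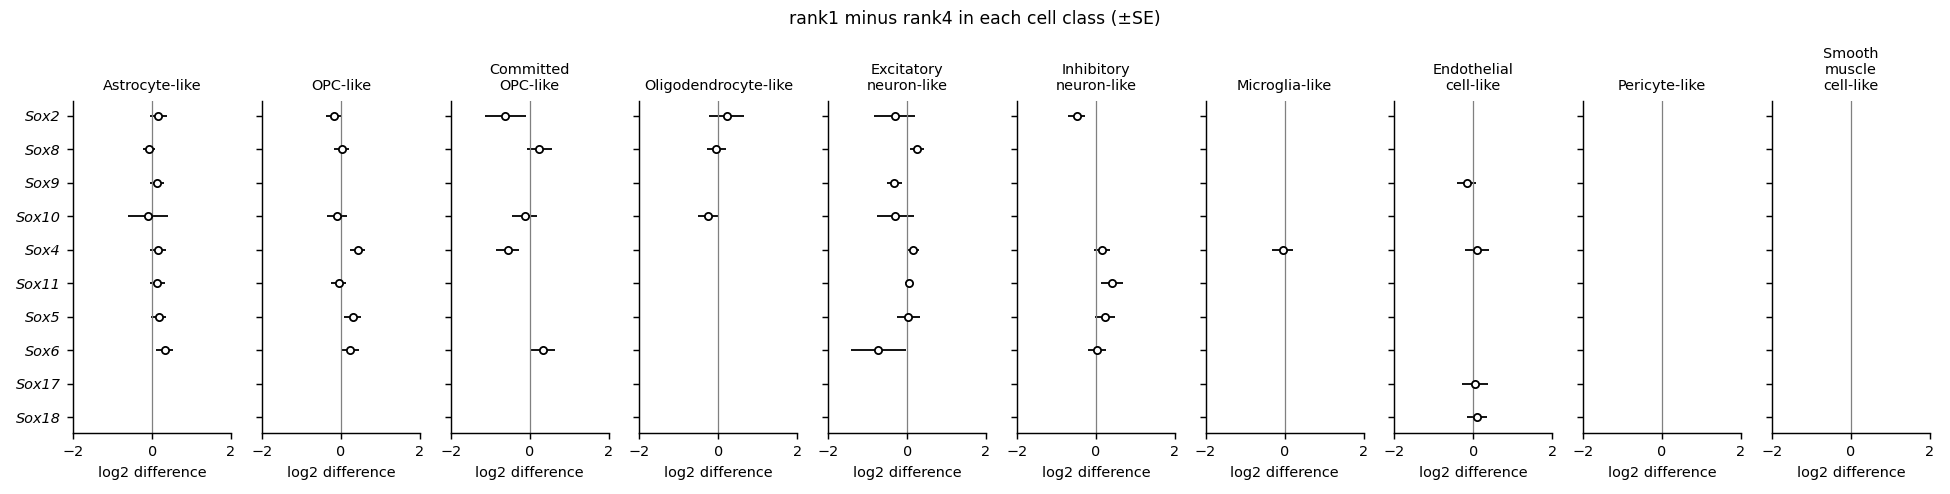
Fitted log2 difference of each tested member between rank1 and rank4 in 10 classes (±SE). All 41 points are open because 0 passed at an adjusted p of 0.05, and they lie between -0.73 and 0.42; no member passed the filter on low counts in the pericyte-like and smooth muscle-like classes.

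Across the 10 classes the level of Sox17 ran most like that of Sox18 among the members (Pearson r = 0.96 of log2(mean CPM + 1) over the 10 class means), followed by Sox8 with Sox10 (0.87). These classes share libraries and are given as a description. Among 11338 genes with at least 20 CPM in a class, the genes most like Sox10 were Gjc3 (0.99), Gal3st1 (0.98) and Tmem163 (0.97). Those most like Sox17 were Ly75 and Gbp4 (0.99 each) and Lsr (0.99), and those most like Sox18 were Emp1 (0.99), Gata2 and Foxl2 (0.98 each). Sox9 ran with Aqp9 (0.97), Ranbp3l and Cyp4f15 (0.96 each), Sox8 with Mfsd8, Tbccd1 (0.97 each) and Wscd1 (0.96), and Sox2 with Luzp2 (0.96), Pou3f4 (0.92) and Nacc2 (0.91). For Sox11 they were Kansl2 (0.98), Cstf2t and Spon1 (0.97 each), for Sox6 Gdf11 (0.95), Col11a1 (0.94) and Zfyve16 (0.92), for Sox5 Ate1 (0.93), Hs2st1 and 1500011K16Rik (0.92 each), and for Sox4 Nrm, Creld2 and Galnt10 (0.89 each).

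Other Sox genes were measured beside the members. Sox7, the third SoxF gene, had 108 CPM in endothelial-like cells and at most 7.5 CPM in any other class. Sox21 had 82.4 CPM in astrocyte-like and 72.3 CPM in precursor-like cells, Sox1 67.8 CPM in astrocyte-like and 26.0 CPM in inhibitory neuron-like cells, and Sox13 33.8 CPM in endothelial-like cells. Sox3 was highest in precursor-like cells at 28.1 CPM. No UMI of Sox14 or Sry was counted in the kept cells.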

How the data were processed

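Raw UMI counts per gene and barcode were taken as the authors deposited them, 1 matrix per library. Per the submitters' processing notes they were made with Cell Ranger 4.0.0 on mm10, while version 3.1.0 stands in the matrices of replicates 1 to 3, per the file headers. The strand setting of the counting is not given in the sources used here. All else was computed here from the 30406 genes common to both gene lists.

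Barcodes with at least 500 genes and at most 15% mitochondrial UMIs were kept. Doublets (3915 barcodes) were called with Scrublet in scanpy 1.11.5 and removed, and in rank1 replicate 1, where the caller failed, a score threshold of 0.238 was applied. Cells were clustered by the Leiden method at resolution 1 on 30 principal components of 2000 variable genes, with 26 Sox and Sry genes left out, and clusters were named from fixed marker lists. Counts were summed per library and type where a library had at least 20 cells (10 for committed precursor-like and arterial-like cells) and tested with edgeR 4.0.16 in R 4.3.3 by quasi-likelihood, with TMM factors, a filter on low counts, and the header version as covariate for ranks or the library as block between types. Adjusted p-values are Benjamini-Hochberg over all genes tested, and every test was two-sided. DESeq2 1.42.0, other filters, left-out subclusters and single left-out libraries were alternatives. The pipeline was tested on simulated data. Intervals on shares of cells cover counting error only, and UMIs per library ran from 4442750 to 29278466.

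The labels give both ranks the numbers 1 to 5 without saying what they share. Deviations from the rank means correlated in all 47 same-numbered pairs within the 10 classes (0.44 to 0.87), and 32 of 47 correlated best with their own number. Replicate 2 did so only in excitatory neuron-like and smooth muscle-like cells. The number was therefore used as a block, and a pair above means the libraries of 1 number. Whether the numbers mark matched pairs or larger groups of libraries was not tested. Capillary cells could not be named, so the planned arterial against capillary contrast used all endothelial-like cells named neither arterial nor venous, a choice made after the data were seen. For each member the 3 genes with the highest correlation over classes were named, and of each list the up to 4 genes with the smallest p. The members and lists were chosen with earlier results of these data known. Gene positions are from GENCODE M21 (GRCm38) and promoter sequences from RefSeq (GRCm38.p6). Some genes that the naming rule selected from the lists are not reported here.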

Additional observations from a re-analysis of the deposited data

Results flagged for a closer look

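Sox2ot, a long non-coding gene that spans Sox2 on the same strand, is listed only in the 4 libraries of replicates 4 and 5 and was outside the shared genes. It had 602.95 CPM in oligodendrocyte-like and 90.2 CPM in astrocyte-like cells there. 2810468N07Rik, antisense to Sox8 and listed in the same 4 libraries, had 122.31 CPM in committed precursor-like cells. In 20 groups of 4 or 5 libraries no member value passed Dixon's 95% critical value for an outlier, which few values of so small a group can pass. Nearest to it were Sox8 in committed precursor-like cells of rank1 replicate 2, at 1031 CPM against 223 to 409 CPM in the other rank1 libraries, and Sox2 in astrocyte-like cells of rank1 replicate 1, at 293 CPM against 473 to 550 CPM.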

How the results depend on the processing

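Of 47 member tests between cell types 32 passed, where 26222 of 63382 gene tests did. Under the alternatives the lowest count was 26 of 47 (rank1 libraries alone, 17293 of 62837 gene tests). The highest was 43 of 90, with no filter on low counts, where more members could be tested (36749 of 169654 gene tests). When 1 library was left out, 31 to 34 passed. Library totals as the scaling, added after the data were seen, gave 33. Leaving out the subclusters flagged for markers of another class, likewise added, also gave 33. No call changed direction. Between ranks 0 member tests passed in classes and 0 in subclasses under every alternative that was run, each left-out library included. With the replicate number as a block the count was also 0.

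The differences that changed sign had not passed. Between ranks, Sox9 in astrocyte-like cells had -0.0083 in replicates 1 to 3 alone. Sox11 in precursor-like cells had 0.17 in replicates 4 and 5 alone and -0.16 to 0.063 without 1 library, and Sox10 there -0.26 to 0.083 without 1 library. Sox8 in committed precursor-like cells had -0.081 to 0.48 without 1 library, the lowest without rank1 replicate 2. Endothelial Sox17 had -0.072 with no covariate, -0.22 in replicates 1 to 3 alone and -0.15 to 0.25 without 1 library, and Sox18 -0.019 in replicates 1 to 3 alone and -0.088 to 0.22 without 1 library.

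Between committed and other precursor-like cells, Sox6 had -0.15 with no filter on low counts, -0.11 with library totals, -0.070 in rank1 alone, -0.074 as the mean of the exact sign permutation and -0.078 to 0.20 without 1 library. Sox10 had -0.14 with no filter, -0.071 with library totals, -0.074 in the sign permutation and -0.0096 to 0.12 without 1 library. The exact permutation of signs over 9 libraries, two-sided, gave Sox8 an unadjusted p of 0.0508 there, which ended its call. Between inhibitory and excitatory neuron-like cells Sox5 had -0.24 to 7.31e-05 without 1 library and 0.092 in the sign permutation, and passed with no filter on low counts (-0.29, adjusted p = 0.0257). Sox4 there had -0.0059 with no filter and -0.083 without the subclusters flagged for markers of another class. Sox4 between endothelial-like and pericyte-like cells had -0.060 with the stricter cell filter and passed with no filter on low counts (0.43, adjusted p = 0.0452). The cause of these changes was not tested. Of 10 shares of cells with a UMI, 6 moved by more than the SD over libraries when cells were thinned to 1000 UMIs.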
